A study of Mus musculus with 12 samples.

Results

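The genes that protect and copy the ends of chromosomes were followed in LSK cells, a fraction of mouse bone marrow that lacks lineage markers and carries Sca-1 and KIT, in which hematopoietic stem cells and early progenitors lie. The members were taken by gene name, 10 of the 35999 genes in the deposited table: the shelterin genes Terf1, Terf2, Tinf2, Pot1a, Pot1b, Acd and Terf2ip, the telomerase gene Tert, and the telomere replication genes Rtel1 and Ctc1. RNA-seq was done on 12 mice, each with a library of its own, of which 6 carry the label WT and 6 the label KO. The KO mice lack Fancg, a subunit of the Fanconi anemia core complex, in all cells, and no treatment is given for either group. The sample labels name only bone marrow as the tissue, and the sort for LSK cells is taken from the methods of the study. Age, strain and sex of the mice are not given in the sources used here. The question was whether the telomere genes differ between LSK cells with and without Fancg.

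Shelterin is a protein complex that coats the TTAGGG repeats of telomeres and keeps them from being read as broken DNA. TERF1 and TERF2 bind the double-stranded repeats, POT1 proteins bind the single-stranded overhang, TINF2 and ACD join both kinds, and TERF2IP sits on TERF2. Telomerase adds repeats to the ends, RTEL1 unwinds structures that hinder their copying, and CTC1 is part of the CST complex that fills in the complementary strand. In people, inherited defects of several of these genes cause short telomeres and bone marrow failure, and the marrow also fails in Fanconi anemia.

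The deposited values are called signal here, estimated reads per gene after scaling of each library. They correspond to between 1235086 and 2471271 reads per library, approximate numbers worked out from the spacing of the lowest values. A single gene, Lars2, took between 15.6% (WT replicate 3) and 36.2% (WT replicate 6) of the signal of a library, which left fewer reads for all other genes. Fancg, the targeted gene, was low in both groups, with a signal of 4.76 to 24.1 (median 8.59) in WT libraries and 4.46 to 14.5 (median 7.91) in KO libraries. The difference was within the spread (exact permutation p = 0.636), so the level of Fancg did not separate the labels. A few libraries stood apart from their label. WT replicate 3 and KO replicate 7 had a sum of 4 Y-linked genes of 26.6 and 49.7, and the other 10 had between 189 and 435. Of the near-identical pseudogenes Gm18853 and Gm18852, the former took 0 to 0.0482% of their sum in the other libraries labelled WT and at least 99.96% in KO replicates 2, 4, 5 and 6, but 26.1% in WT replicate 3, 25.2% in KO replicate 7 and 2.69e-05% in KO replicate 3. Log2 fold changes without these libraries are given beside each gene whose value changed sign or moved by over 1.5 times without 1 of them, or without KO replicate 7 or KO replicate 3 together with WT replicate 3. Of 12 LSK markers, 11 had a mean signal of 10 or more, among them Kit (343) and Cd34 (620), while Ly6a, which encodes Sca-1, had a mean of 10.8. Erythroid, neutrophil and monocyte, B cell, and T and NK cell lists summed to at most 34.0, 183, 299 and 82.6 in a library, against 2337 to 3141 for the LSK list. The erythroid genes Hba-a1 and Hba-a2, the neutrophil genes S100a8, S100a9 and Ngp, the B cell gene Pax5 and the T cell genes Cd3e and Cd3d each had a mean under 1. Members of these lists at a mean of 10 or more were Ebf1 (124) and Cd79b (13.8) of the B cell list, Nkg7 (42.7) of the T and NK cell list, and Ccr2 (42.04), Itgam (25.7) and Csf1r (21.96) of the neutrophil and monocyte list. The 6 megakaryocyte markers, of which only Ppbp had a mean under 1, had a sum between 38.7 and 89.9 in WT libraries and between 40.6 and 264 in KO libraries, with the value of 264 in KO replicate 7.

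Mice hold a pair of Pot1 genes where people hold a single one, so it was first asked whether reads of the pair could be told apart. The coding sequences of the transcripts with the longest reading frames (ENSMUST00000115330.7 for Pot1a and ENSMUST00000086876.6 for Pot1b) are both 1920 bases long and were identical at 1511 of 1917 aligned bases (78.8%). The longest identical run was 41 bases. It is shown with its flanks because a read that lies wholly within the run cannot be assigned. The sequences are from the GENCODE transcripts of GRCm38, 5′ to 3′ along the coding strand, with mismatches in capitals. Both stretches cover coding bases 460 to 519 and lie within 1 exon, at chr6:25775552-25775611 for Pot1a and chr17:55695054-55695113 for Pot1b, each (minus strand).
Pot1a: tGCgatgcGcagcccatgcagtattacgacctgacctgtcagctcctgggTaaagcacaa
Pot1b: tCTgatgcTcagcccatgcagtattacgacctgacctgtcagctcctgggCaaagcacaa
The first 60 coding bases are shown for contrast, since 13 of them differ.
Pot1a: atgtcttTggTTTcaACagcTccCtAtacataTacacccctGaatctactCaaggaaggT
Pot1b: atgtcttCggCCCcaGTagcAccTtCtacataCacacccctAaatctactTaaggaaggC
Of all 31-base stretches in the annotated transcripts, 11 were shared, 0.13% of those of Pot1a and 0.208% of those of Pot1b. Stretches of this length are the unit by which kallisto assigns reads at its usual setting, so little sequence is shared between the pair.

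Levels were compared between genes per kilobase of merged exons. Terf2 and Terf1, which encode the proteins on the double-stranded repeats, had the highest levels, at 12.9 ± 3.74 and 11.99 ± 2.35 signal per kilobase (SD, n = 12). Terf2 was above Terf1 in 8 of 12 libraries, so this pair did not differ beyond the spread, and Terf1 was above Pot1a, the next in order, in 12 of 12. Pot1a (6.90 ± 1.84), Tinf2 (6.45 ± 4.10), Pot1b (6.17 ± 1.47), Acd (5.12 ± 1.77) and Terf2ip (4.53 ± 1.24) followed within each other's spread (SD, n = 12). Each of them was above its next neighbour in 8, 5, 10, 6 and 10 libraries. Rtel1 (3.14 ± 1.28) and Ctc1 (3.06 ± 0.968) were lower and traded places, with Rtel1 above Ctc1 in 6 of 12 libraries (SD, n = 12). Tert was last, between 0 and 4.54 signal per kilobase. Among 8882 tested genes with a length, whose median was 7.27 signal per kilobase, Terf2 and Terf1 lay at the percentiles 71.4 and 69.1, the other shelterin genes between 29.9 and 47.8, and Ctc1 and Rtel1 at 15.8 and 16.6. With the longest transcript as the length the order kept Terf2 first and Tert last, but Pot1a rose to 18.3 signal per kilobase beside 19.0 for Terf1, and Terf1 was above it in 7 of 12 libraries. The separation of Terf1 from Pot1a therefore depends on the length used.

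**Figure D1:**
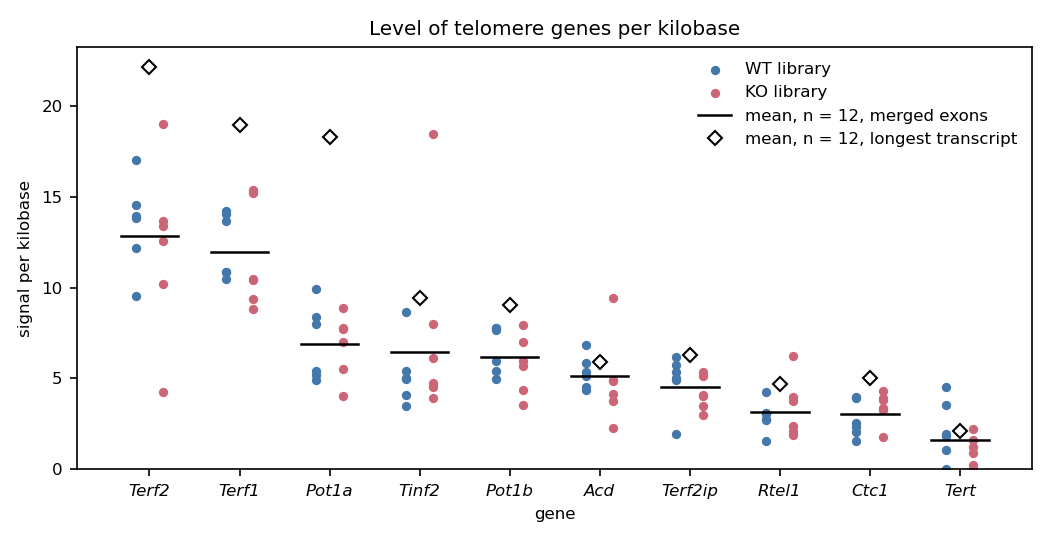
Level of each telomere gene in signal per kilobase (y axis, linear), genes on the x axis in the order of their means. Dots are the libraries, lines the means over 12 libraries with merged exons (12.9 for Terf2 down to Tert) and diamonds the means with the longest transcript, which lift Pot1a from 6.90 to 18.3.

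Values of single genes are given next as signal per library, and differences between the labels as log2 fold changes of signal + 1, KO minus WT, a scale that understates changes of low genes. The difference was tested with limma over the 8887 genes whose mean signal reached 10. The p-values rest on the spread between libraries of different mice, which holds counting error as well as differences between mice. In such bulk RNA, fewer cells of a type and less RNA per cell cannot be told apart. Of the 10 members, 9 passed this filter and Tert did not. Of these 9, 0 had an adjusted p under 0.05 (smallest adjusted p = 0.9996 from limma), and so did 0 of all 8887 genes tested. That count is therefore not particular to the members. An unadjusted p under 0.05 was reached by 0 of the 9, against 3.67% of all genes tested (1.98% higher and 1.69% lower under the KO label). Without WT replicate 3 and KO replicate 7 the count was again 0, against 4.43%. By exact permutation of the libraries, 0 of 10 members had a p under 0.05, against 3.83% of all genes tested. The WT and KO values overlapped for 10 of 10 members. This is the usual case, since only 0.09% of all genes tested had groups apart. Log2 fold changes of the 9 ran from -0.25 to 0.35, with 6 lower and 3 higher under the KO label and a median of -0.11, beside 0.00315 for all genes tested, of which 49.3% were lower. These results do not show that the levels were equal. The 95% intervals from limma stayed within 1 log2 unit of 0 for 8 of the 9, as for 83.4% of all genes tested, and the exception was Tinf2.

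**Figure D2:**
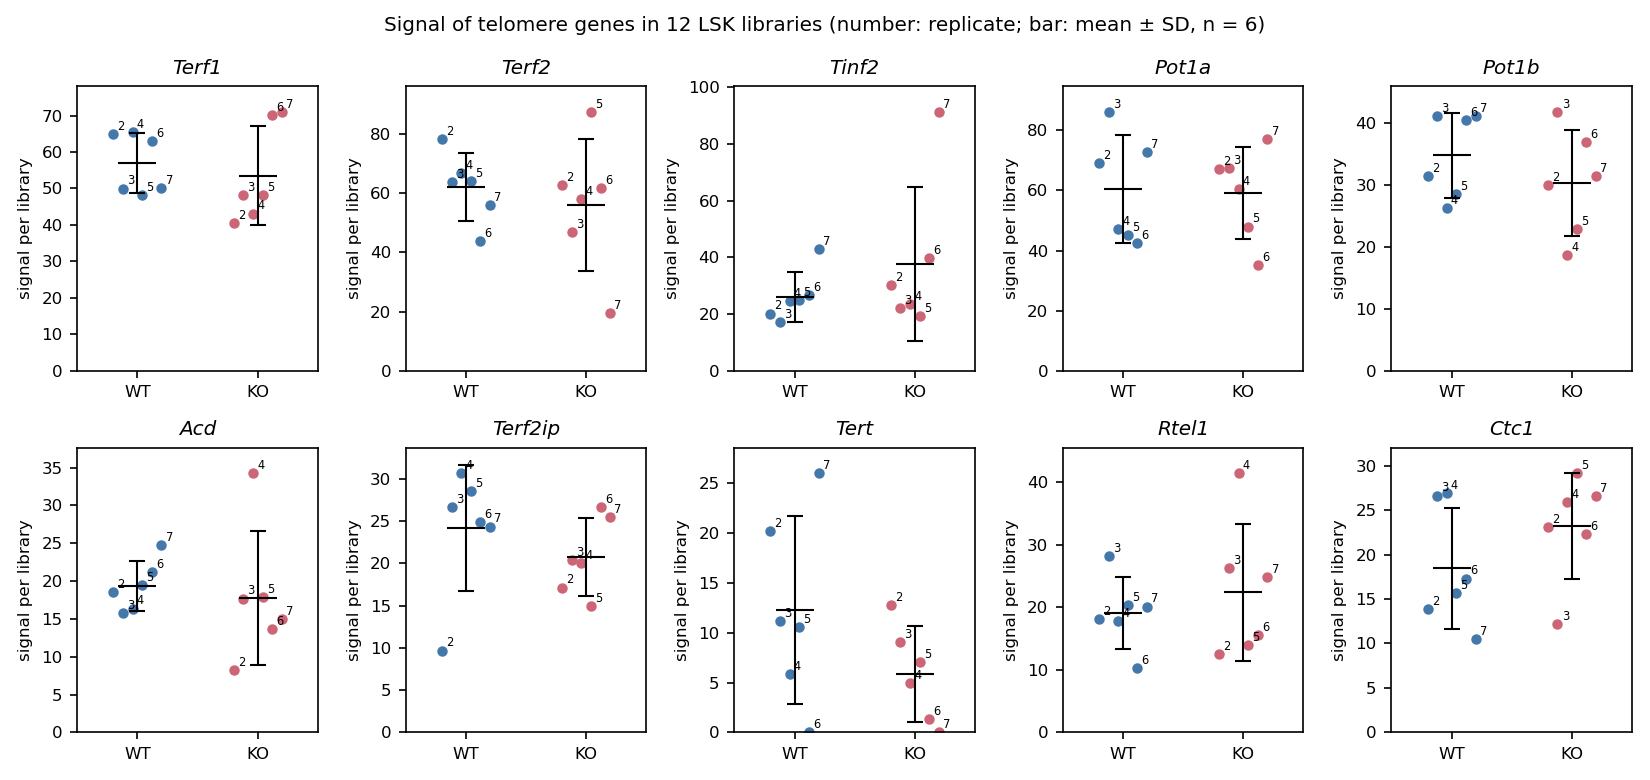
Signal of the 10 members in each library (y axis, linear from 0), WT on the left and KO on the right of each panel. Numbers are replicates, bars the mean ± SD (n = 6), and the groups overlap in every panel, with Tinf2 at 91.2 and Terf2 at 19.6 in KO replicate 7.

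Terf1, on chromosome 1 from 15805646 to 15844052 on the plus strand, encodes the factor that regulates telomere length and eases replication through the repeats. Its signal ran from 48.3 to 65.5 (median 56.6) in WT libraries and from 40.6 to 71.0 (median 48.2) in KO libraries. The KO range enclosed the WT range, with KO replicates 6 and 7 high and the other 4 at or below 48.3. This gave a log2 fold change of -0.11 (95% interval -0.48 to 0.26, exact permutation p = 0.5). It was -0.20 without KO replicate 7 and -0.23 without WT replicate 3 and KO replicate 7, but -0.04 without KO replicate 2.

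Terf2, on chromosome 8 from 107069400 to 107096547 (minus strand), encodes the factor that folds the end into a loop and blocks fusion of chromosomes. It ran from 43.8 to 78.4 (median 63.9) in WT libraries and from 19.6 to 87.5 (median 59.8) in KO libraries. Both the lowest and the highest of the 12 values were in KO libraries, KO replicate 7 and KO replicate 5. The log2 fold change of -0.25 (95% interval -0.84 to 0.34, exact permutation p = 0.554) became 0.02 without KO replicate 7 and 0.03 without WT replicate 3 and KO replicate 7. Terf2ip, the TERF2 partner known as RAP1, lies on chromosome 8 from 112011398 to 112020528 on the plus strand. Its signal was 9.68 to 30.6 (median 25.8) in WT libraries and 14.9 to 26.7 (median 20.2) in KO libraries. The lowest value was in WT replicate 2, while the other 5 libraries labelled WT lay between 24.4 and 30.6, and 2 of the 6 KO libraries lay in that range. Between the labels Terf2ip had a log2 fold change of -0.16 (95% interval -0.71 to 0.40, exact permutation p = 0.615). Without WT replicate 2 it was -0.39, with an exact permutation p = 0.0325, and 3.47% of all genes were past 0.05 by this test without that library. Without KO replicate 5 it was -0.07.

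Tinf2, the hub that links TERF1 and TERF2 to ACD, is a minus-strand gene on chromosome 14 from 55674689 to 55681820. Its signal ran from 17.1 to 42.8 (median 24.7) in WT libraries and from 19.2 to 91.2 (median 26.8) in KO libraries. The libraries of replicate 7 were the highest of their label, at 42.8 and 91.2, and the other 10 lay between 17.1 and 39.6. The difference on the log2 scale was 0.35 (95% interval -0.34 to 1.05, exact permutation p = 0.405), 0.06 without KO replicate 7, 0.51 without WT replicate 7 and -0.04 without WT replicate 3 and KO replicate 7. KO replicate 7 was also the library with the fewest reads (1235086) and the highest sum of megakaryocyte markers (264), whose part in these values was not tested. Of the exon bases of Tinf2, 1540 (31.2%) are also exon bases of Gmpr2 on the opposite strand. The strand setting of the counting is not given in the sources used here, so it is not known whether reads of this stretch were told apart. Gmpr2 had a signal of 22.3 in KO replicate 7, within its range of 12.2 to 34.1 over the 12 libraries.

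Acd, which encodes the protein also called TPP1 that recruits telomerase, is a minus-strand gene on chromosome 8 from 105695860 to 105701102. Its values were 15.8 to 24.8 (median 19.0) in WT libraries and 8.21 to 34.2 (median 16.3) in KO libraries. KO replicate 4 was the highest of all and the other 5 KO libraries lay at or below 17.8, with only 1 of the 6 KO libraries above the WT median. Its log2 fold change was -0.22 (95% interval -0.80 to 0.36, exact permutation p = 0.463). Without KO replicate 4 it was -0.43, with an exact permutation p = 0.0411, and 4.35% of all genes were past 0.05 by this test without that library. Without KO replicate 2 it was -0.04. Acd shares 1208 exon bases (33.3%) with Carmil2 on the opposite strand. Carmil2 had a signal of 63.5 in KO replicate 4, its highest among the KO libraries and within its range of 13.7 to 73.0 over the 12 libraries. In KO replicate 2, where Acd was lowest, Carmil2 had 50.25, its next highest among the KO libraries. Here too it is not known whether reads of the shared bases were told apart.

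Pot1a, on chromosome 6 from 25743737 to 25809246 (minus strand), encodes the POT1 protein needed to hold back the ATR kinase at telomeres. It ran from 42.5 to 86.1 (median 58.1) in WT libraries and from 35.2 to 77.1 (median 63.8) in KO libraries. High and low values were spread over both labels, and the log2 fold change of -0.02 was the smallest of all members in size (95% interval -0.50 to 0.45, exact permutation p = 0.931). It was 0.09 without WT replicate 3, -0.11 without KO replicate 7 and -0.07 without KO replicate 3, while leaving out WT replicate 3 together with KO replicate 7 or KO replicate 3 gave 0.0047 and 0.04. Pot1b, on chromosome 17 from 55651951 to 55712628 (minus strand), encodes the POT1 protein that limits trimming of the 5′-ended strand. Its signal was 26.3 to 41.1 (median 35.9) in WT libraries and 18.7 to 41.7 (median 30.6) in KO libraries. KO replicates 4 and 5 were below the WT range and the other 4 KO libraries lay in it or just above it, in the case of KO replicate 3. Here the log2 fold change was -0.22 (95% interval -0.67 to 0.23, exact permutation p = 0.310). Of the 6 same-numbered pairs of libraries, 1 had a higher Pot1b value under the KO label.

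The balance of the Pot1 pair varied between libraries, and the ranges of the labels overlapped. Pot1a made up 50.9% ± 6.54 of the summed signal per kilobase in WT libraries and 54.4% ± 10.2 in KO libraries (SD, n = 6 each), from 39.0% to 57.3% and from 36.7% to 66.4%. Pot1a was above Pot1b in 8 of 12 libraries on this scale, and in 11 of 12 by signal not divided by length. The replicate 6 libraries of both labels were the lowest in the share of Pot1a. With the longest transcript as the length the shares were 64.9% ± 6.17 and 67.8% ± 9.38 (SD, n = 6 each). The lowest share was then 51.1%, so Pot1a was above Pot1b in every library. The merged exons of Pot1a hold 8669 bases and its longest transcript 3271, against 5268 and 3582 for Pot1b. Which gene of the pair is higher therefore depends on the length used.

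**Figure D3:**
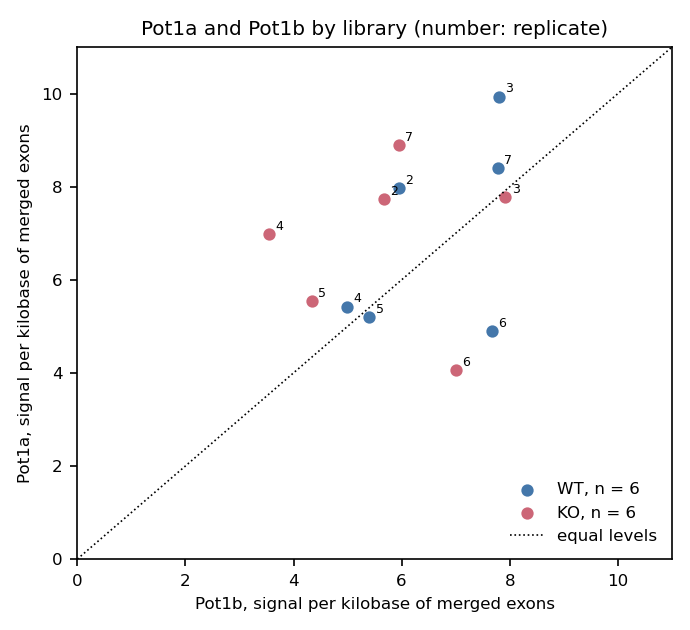
Pot1a (y axis) against Pot1b (x axis) in each library, in signal per kilobase of merged exons, with the dotted line at equal levels and replicate numbers beside the points. WT and KO points mix, 8 of 12 lie above the line, and both replicate 6 libraries lie well below it. With the longest transcript as the length, Pot1a was above Pot1b in every library.

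Tert, the reverse transcriptase of telomerase, lies on chromosome 13 from 73626911 to 73649843 on the plus strand. Its mean signal of 9.10 was under the filter, and it rests on 0 to 24.1 reads per library. The WT libraries, from replicate 2 to replicate 7, had a signal of 20.2, 11.2, 5.89, 10.6, 0 and 26.0. The KO libraries, in the same order, had 12.8, 9.07, 4.97, 7.09, 1.35 and 0. A library of each label was thus at 0, which allows a signal of up to 3.76 in WT replicate 6 and 4.82 in KO replicate 7 (3 reads each, counting error only). The 5 KO libraries other than replicate 2 were at or below 9.07, as were 2 of the 6 WT libraries. The log2 fold change of -0.86 did not differ beyond the spread (two-sided exact permutation test, p = 0.353), and it moved to -0.39 without KO replicate 7, to -0.31 without WT replicate 3 and KO replicate 7 and to -1.49 without WT replicate 6. The RNA template of telomerase, Terc, was looked for but has no row under that name in the deposited table.

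Rtel1, a helicase that opens telomeric loops, lies on chromosome 2 from 181319739 to 181356616 on the plus strand. It ran from 10.3 to 28.2 (median 19.1) in WT libraries and from 12.5 to 41.4 (median 20.2) in KO libraries. KO replicate 4 was the highest, and 3 of the 6 KO libraries were above the WT median. The log2 fold change of 0.15 (95% interval -0.48 to 0.78, exact permutation p = 0.649) was -0.05 without KO replicate 4 and -0.00665 without WT replicate 6. It was 0.27 without WT replicate 3, 0.10 without KO replicate 7 and 0.08 without KO replicate 3.

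Ctc1, on chromosome 11 from 69015911 to 69036473 on the plus strand, had the smallest limma p of the members. Its signal was 10.5 to 26.9 (median 16.5) in WT libraries and 12.1 to 29.1 (median 24.5) in KO libraries. Of the 6 KO libraries, 5 were between 22.3 and 29.1 and KO replicate 3 was at 12.1. Of the 6 WT libraries, 4 were between 10.5 and 17.3 and replicates 3 and 4 were at 26.6 and 26.9. KO libraries were higher by 0.34 on the log2 scale (95% interval -0.22 to 0.90, exact permutation p = 0.240). Without the replicate 3 libraries of both labels it was 0.62, with an exact permutation p = 0.0397, an unadjusted limma p = 0.0243 and an adjusted p = 0.9992. In that fit 4.15% of all genes had an unadjusted limma p under 0.05 and 4.48% an exact permutation p under 0.05, and Ctc1 was the 1 member among them.

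**Figure D4:**
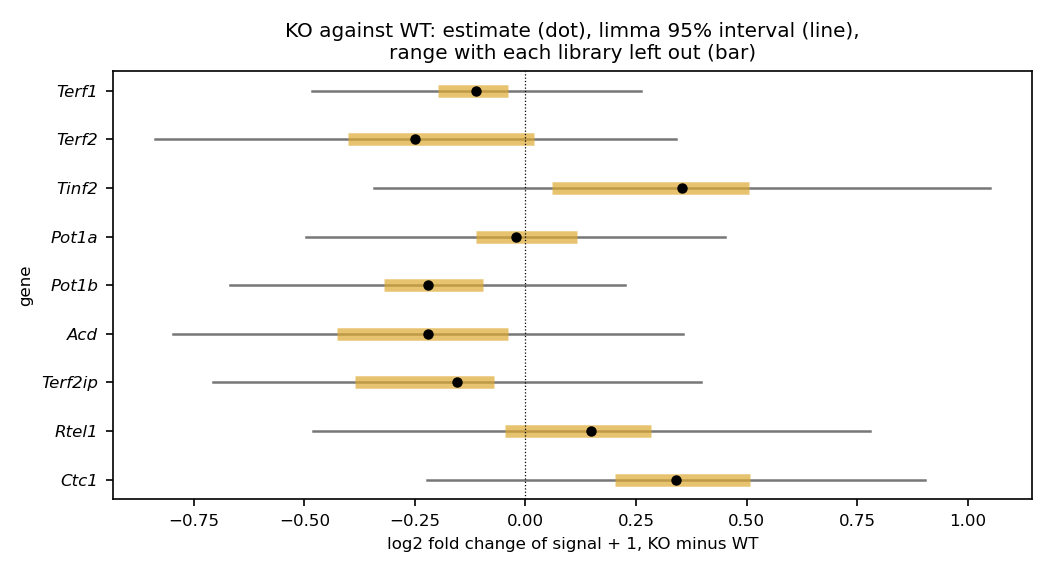
Log2 fold change of signal + 1, KO minus WT (x axis), for the 9 members tested (y axis). Dots are estimates, thin lines 95% intervals from limma, all of which include 0, and thick bars the range when each library is left out in turn, which crosses 0 for Terf2, Pot1a and Rtel1.

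The 7 shelterin genes together had a summed signal of 259 to 312 (median 285) in WT libraries and 256 to 331 (median 262) in KO libraries, the highest again in KO replicate 7.

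A wider list of telomere genes was then read in the same way. Of 52 listed, 51 were in the table (all but Terc) and 46 were tested. Of the 46, 20 were higher and 26 lower under the KO label, with a median log2 fold change of -0.0186. With limma, 0 had an adjusted p under 0.05, the same as for all 8887 genes tested. An unadjusted p under 0.05 was reached by 1 (2.17%), a share below the 3.67% of all genes tested. This was Samhd1, a dNTP triphosphohydrolase that also acts at stalled replication forks, on chromosome 2 from 157097533 to 157135265. Its signal ran from 70.1 to 135 (median 95.2) in WT libraries and from 51.1 to 82.6 (median 71.8) in KO libraries. Of the 6 KO libraries, 3 were below the WT range and the other 3 overlapped with WT replicate 2 alone, since the other 5 WT libraries were at 89.9 or more. Samhd1 had a log2 fold change of -0.50 (standard error 0.17, limma p = 0.0102, adjusted p = 0.9996, exact permutation p = 0.0108). Scaled to the same total per library it was -0.42 and lost the unadjusted call.

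Among the partners of CTC1 and polymerase alpha-primase, 0 of 4 tested genes had an unadjusted p under 0.05 in either direction. The smallest p was that of Pola2, the accessory subunit of polymerase alpha (log2 fold change 0.24, exact permutation p = 0.227), and the CST genes Stn1 and Ten1 were under the filter with means of 5.48 and 9.09 in WT libraries and 5.203 and 5.39 in KO libraries. Of the 11 tested genes for maturation of the telomerase RNA, 0 passed. Dkc1, Nop10 and Nhp2 encode proteins of the H/ACA particle around that RNA, and their log2 fold changes were -0.01, -0.02 and 0.22. Parn, which trims the 3′ end of the RNA, had the smallest p of this list (log2 fold change -0.34, exact permutation p = 0.152). Of 22 shelterin partners, helicases and nucleases, Samhd1 alone passed, while the helicase genes Blm and Wrn had log2 fold changes of 0.21 and 0.12 and the nuclease gene Dclre1b, whose product works with TERF2, -0.17. Of 9 genes of telomeric chromatin 0 passed, with the smallest limma p for Suv39h1, a histone H3 lysine methyltransferase (log2 fold change -0.28, exact permutation p = 0.0801). By the exact permutation test the smallest p of this list was that of Cbx5, which encodes a heterochromatin protein (log2 fold change 0.21, p = 0.0519). The 12 proliferation markers summed to 1641 to 2489 in WT libraries and 1463 to 2634 in KO libraries, and 0 of them had an unadjusted p under 0.05.

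**Figure D5:**
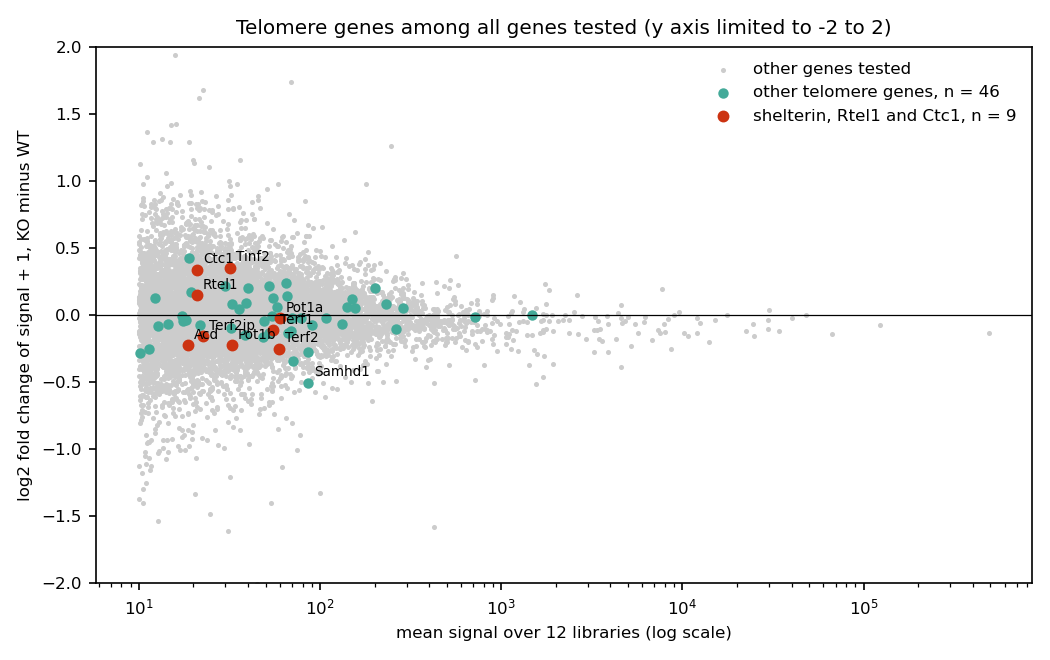
Log2 fold change of signal + 1, KO minus WT (y axis, with 7 genes beyond the axis), against mean signal (x axis, log scale) for all 8887 genes tested. The 9 members and 46 other telomere genes lie inside the cloud of all genes, with Samhd1 lowest among them at -0.50.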

How the data were processed

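LSK cells of 12 mice were sorted, mRNA was enriched and libraries were made with a CATS kit. The authors deposited a single table of signal, which its name and its uneven values mark as estimated read counts after scaling by library. The submitters' processing notes name kallisto. The mouse genome build and annotation used are not given in the sources used here. Positions and lengths come from GENCODE M21 on GRCm38, which held 35929 of the 35999 gene names.

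Values were used as deposited. The 8887 genes whose mean signal reached 10 were tested on log2(signal + 1) with limma 3.58.1 in R 4.3.3 (trended empirical Bayes, two-sided tests, p-values adjusted by Benjamini-Hochberg), without covariates, after a test on simulated data. Exact permutation tests used all 924 divisions of the libraries, with 0.0022 as the smallest possible p. Replicate numbers come from the titles. Pseudocounts, filters, scalings, a replicate block and left-out libraries were tried as alternatives. Members and lists were chosen with earlier results of these data known. The text names all 10 members, Fancg, and from each wider list every gene with an unadjusted p under 0.05 or else the gene with the smallest. The other genes named were chosen after their values were seen.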

Additional observations from a re-analysis of the deposited data

Results flagged for a closer look

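A value is given here when 1 of the 6 libraries of a label lay far from its 5 fellows by Dixon's criterion at the 95% level. Of 20 groups of 6 libraries, 4 met it, where chance gives about 1 if the values follow a normal distribution. The criterion was applied to signal and not to the log2 scale of the tests. Whether signal follows that distribution was not tested, so the 4 are not read as more than chance gives. For Tinf2, WT replicate 7 had 42.83 and the rest of the WT libraries 17.1 to 26.6. KO replicate 7 had 91.22 of the same gene, with 19.2 to 39.6 in the rest of the KO libraries. For Acd, KO replicate 4 had 34.24 and the rest of the KO libraries 8.21 to 17.8. For Terf2ip, WT replicate 2 had 9.682 and the rest of the WT libraries 24.35 to 30.6. All are in units of signal, and the log2 fold changes without these libraries stand beside each gene above.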

How the results depend on the processing

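The number of members with an adjusted p under 0.05 was 0 under every alternative run, and so was that of the 46 other telomere genes. Of all genes tested, 0 had one in these fits, except 1 gene without WT replicate 3 and KO replicate 3. The number of members with an unadjusted limma p under 0.05 was 0 in every fit but the one without WT replicate 3 and KO replicate 3, where it was 1 (Ctc1), and there the exact permutation test also called 1. With 1 library left out in turn, the exact test called 0 to 1 member (Terf2ip without WT replicate 2 and Acd without KO replicate 4, where it called 3.47% and 4.35% of all genes). Of the other telomere genes, the number past an unadjusted p of 0.05 was 2 without a filter and with a mean signal of at least 5 (Ten1 was added), 0 with either scaling to the same total, and 1 to 2 with 1 library left out (Suv39h1 was added without KO replicate 6). Scaling to the same total moved the median of all genes tested to 0.0818. Lars2 makes up a varying share of that total, and its part in this shift was not tested.

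Directions turned in 14 of 239 values. Pot1a had a log2 fold change of 0.057 when scaled to the same total, 0.015 when scaled without the 15 highest genes, 0.0047 without WT replicate 3 and KO replicate 7, and 0.043 without WT replicate 3 and KO replicate 3. Without WT replicate 3 and KO replicate 7, Terf2 had 0.030 and Tinf2 -0.044. With 1 library left out, the range was -0.11 to 0.12 for Pot1a, -0.40 to 0.02 for Terf2, 0.06 to 0.51 for Tinf2 and -0.046 to 0.28 for Rtel1. With the longest transcript as the length, 6 of 10 members kept their place in the order of levels, and the share of Pot1a over the 12 libraries was 66.4%, in place of 52.6%.

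Deviations of same-numbered libraries correlated at 0.0862 to 0.362 over the 6 pairs (mean 0.196, against -0.039 for other numbers), and 9 of 12 libraries correlated best with their own number, a hint from the data that numbers may mark something shared. Since the labels name nothing that they mark, and pairing was taken to need a correlation over 0.1 in every pair (4 of 6 reached it), the block was kept as an alternative. With the replicate block, 476 genes in place of 326 had an unadjusted p under 0.05, and the number of members was 0 in both fits. The smallest limma p of a member was 0.116 with the block (Tinf2) and 0.218 without it (Ctc1). By exact permutation the smallest p of a member was 0.0625 with the block (Pot1b) and 0.24 without it (Ctc1). With the block there are far fewer divisions than 924, so the smallest possible p is larger than 0.0022. Genes near the filter rest on few reads, and the depth of each library is known only approximately.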

Other observations

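Same-numbered libraries of the 2 labels resembled each other in some members, a pattern chosen after the values were seen. The replicate 6 libraries had the lowest shares of Pot1a of their labels, at 39.0% and 36.7%, against 49.0% or more in the other 10 libraries, and Tert signals of 0 and 1.35. The replicate 7 libraries had the highest Tinf2 of their labels, at 42.8 and 91.2, while their Tert signals were 26.0 and 0.

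Outside the telomere genes, 1 of the 2 megakaryocyte markers tested had an unadjusted limma p under 0.05, against 3.67% of all genes tested. Itga2b, which encodes the integrin CD41, had a signal of 11.8 to 19.2 (median 14.6) for the WT label and 19.2 to 45.4 (median 22.2) for the KO label. This was a log2 fold change of 0.72 (standard error 0.23, limma p = 0.00597, adjusted p = 0.9996, exact permutation p = 0.00433). Of the 11 LSK markers tested, Flt3, the receptor gene of multipotent progenitors primed for lymphoid fate, was the 1 with an unadjusted p under 0.05, while 6 of the 11 were higher under the KO label and their median log2 fold change was 0.0503. It ran from 363 to 646 (median 464) for the WT label and from 178 to 523 (median 352) for the KO label, with a log2 fold change of -0.51 (standard error 0.23, limma p = 0.0423, adjusted p = 0.9996, exact permutation p = 0.0628).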
